A study of Mus musculus with 2 samples.

Results

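The 10 genes of cell survival and death are described here, in the nucleoplasm of mouse macrophages shortly after contact with lipid A. The 10 were listed by symbol: Bcl2a1a, Bcl2a1b, Bcl2a1d, Cflar, Birc2, Birc3, Mcl1, Bcl2l1, Traf1 and Bcl2l11. The rule holds no measured value, but the genes were chosen with earlier results of these data known. All 10 matched 1 gene identifier each, out of 55536 mouse genes and 22015 nuclear-encoded protein-coding genes. The label of the set, anti-apoptotic targets of NF-kB and the BCL2 family, holds for function with 1 exception: Bcl2l11 encodes BIM, a protein that promotes cell death.

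Cells decide on death by the mitochondrial route through a balance within the BCL2 family. Survival proteins such as MCL1, BCL-xL and A1 bind and hold both the pore-forming effectors BAX and BAK and the BH3-only proteins that trigger them, BIM among them. Signals from TNF and Toll-like receptors add a further decision at a protein complex that contains caspase 8, where cIAP1, cIAP2, TRAF1 and c-FLIP keep the caspase in check. NF-kB, which lipid A activates through TLR4, is known to raise transcription of several of these genes, so activated macrophages survive their own inflammatory signals.

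Macrophages had been grown from bone marrow of C57BL/6J mice as primary cells and received lipid A, the membrane anchor of bacterial lipopolysaccharide, at 100 ng/ml for 20 min. Both libraries belong to this 1 group, and RNA of the nucleoplasmic fraction was sequenced after removal of ribosomal RNA. Labels number them as biological replicates 1 and 2 with the same donor code, name no separate culture or animal, and record neither sex nor age. RNA input was 1 µg for replicate 1 and 500 ng for replicate 2, so input and replicate cannot be told apart. Gene totals were 18194818 and 18667509 estimated counts. No unstimulated library was used here, so the values are levels and differences between 2 libraries, and no induction was measured.

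Macrophage markers were high and those of other cell types low. All 8 macrophage markers reached 1 TPM, a measure of level that corrects for transcript length and library size, in both libraries, with summed levels of 3712 TPM in replicate 1 and 3397 TPM in replicate 2. Neutrophils and their precursors, which also use A1, had 0 of 8 markers at that level in both libraries, 1 of 8 in replicate 1 and 2 of 8 in replicate 2, with sums of 3.59 and 5.12 TPM and Ly6g at 0 counts in both. Markers of B cells summed to 0.42 and 0.61 TPM, of T and NK cells to 0.04 and 0.09 TPM, of dendritic cells to 2.54 and 2.94 TPM, and of mast cells and basophils to 0.1 and 0.02 TPM. T and NK markers in the second table, made by another program, summed to 3.33 and 10.6 TPM, mostly Cd3d at 2.90 and 9.43 TPM, and neutrophil markers to 2.39 and 4.83 TPM, beside 1401 and 2379 TPM for macrophage markers. The mitochondrial share was 3.19% and 10.5% of counts. For the 15557 genes whose scaled counts averaged at least 10, the median log2 ratio of TPM, replicate 2 over replicate 1, was -0.36. Differences between replicates are therefore given below on counts scaled by the TMM method of edgeR, where the median over the same genes was 0.0034.

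Of the 10 genes, 9 were present at 1 TPM or more in both libraries, against 44.9% of the 22015 protein-coding genes. The median level of the 10 was 72.9 TPM in replicate 1 and 27.2 TPM in replicate 2, but 31.04 and 22.7 TPM in the second table. For comparison, the 9889 protein-coding genes that reached 1 TPM in both had medians of 11.2 and 8.53 TPM. The order of the 10 levels was the same in both libraries: Mcl1, Cflar, Bcl2l11, Birc3, Bcl2a1b, Bcl2l1, Bcl2a1d, Birc2, Traf1 and Bcl2a1a. Only the first and the last stood clear of their neighbours in that order, since the lower Mcl1 value exceeded the higher Cflar value, and the higher Bcl2a1a value lay below the lower Traf1 value. Each other pair of neighbours overlapped across the 2 libraries, a comparison that includes the shift in TPM between the libraries. The second quantification kept Mcl1 first and Bcl2a1a last in both libraries and placed Birc3 above Cflar and Bcl2l11. By its counts Birc3 lay below both, with 4701 and 2818 against 11658 and 9212 for Cflar and 8160 and 7317 for Bcl2l11.

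**Figure D1:**
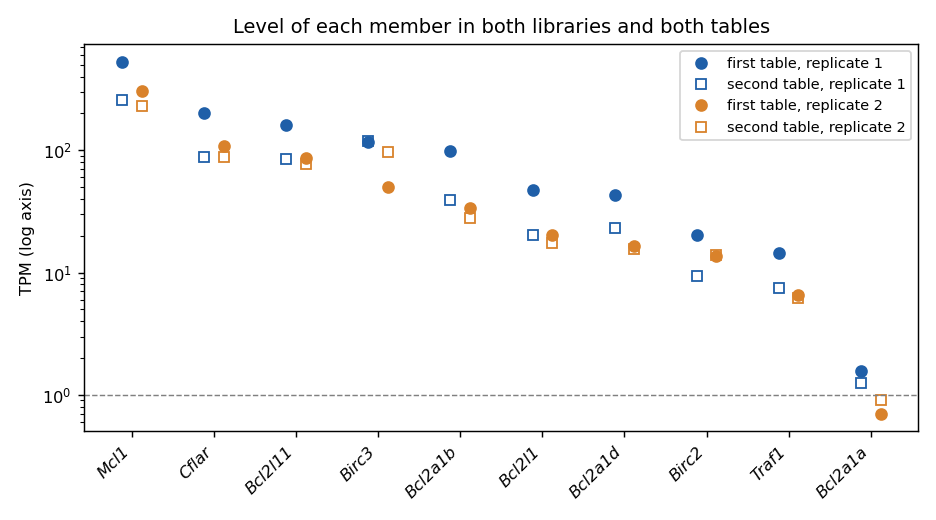
Level of each gene in TPM on a log axis, by library (blue, replicate 1; orange, replicate 2) and by deposited table (filled circles, first; open squares, second), with a dashed line at 1 TPM. In the first table Mcl1 is highest at 530 and 304 TPM and Bcl2a1a is lowest at 1.58 and 0.70 TPM.

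Mcl1 encodes a short-lived survival protein of the BCL2 family that blood cells depend on. It lies on chromosome 3 (95658788 to 95663176, mm10, plus strand) and was the most abundant of the set, with levels of 529.9 and 304 TPM in replicates 1 and 2, or 32318 and 22677 counts. Among nuclear-encoded protein-coding genes it ranked 37 and 51. The second quantification put its level at 257 and 230 TPM. Bcl2l1, the gene of BCL-xL, lies on chromosome 2 (152780668 to 152831728, mm10, minus strand) and was at 47.6 and 20.45 TPM, from 1704 and 939 counts. The level of Mcl1 was 11.1 times that of Bcl2l1 in replicate 1 and 14.9 times in replicate 2, a ratio of TPM within each library that does not depend on scaling between them. In the second table these ratios were 12.7 and 13.3.

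The Bcl2a1 genes encode A1, a survival protein known as an NF-kB target in myeloid cells, and the mouse holds several near-identical copies of the gene. The 3 copies in the set lie on chromosome 9: Bcl2a1d (88723285 to 88731914, minus strand), Bcl2a1a (88956900 to 88962419, plus strand) and Bcl2a1b (89199209 to 89207827, plus strand; all mm10). Each has a coding sequence of 516 bases before the stop codon, and only 12 of these positions differ among the 3. Bcl2a1a and Bcl2a1b differ at 11 positions (97.9% identity), Bcl2a1a and Bcl2a1d at 7 (98.6%), and Bcl2a1b and Bcl2a1d at 6 (98.8%). Coding bases 1 to 120 hold 7 of the 12 and are printed to show how little separates the copies, with capitals at the positions that differ (GENCODE M21 transcripts, 5′ to 3′).
Bcl2a1a: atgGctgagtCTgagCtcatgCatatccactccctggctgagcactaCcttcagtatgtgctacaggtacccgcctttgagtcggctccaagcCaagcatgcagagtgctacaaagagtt
Bcl2a1b: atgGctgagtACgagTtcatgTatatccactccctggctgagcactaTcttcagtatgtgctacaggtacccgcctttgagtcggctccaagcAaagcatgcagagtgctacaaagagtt
Bcl2a1d: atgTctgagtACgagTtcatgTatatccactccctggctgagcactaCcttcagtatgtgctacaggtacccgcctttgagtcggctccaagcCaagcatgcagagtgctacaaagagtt

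How far reads can be assigned to a copy follows from such positions. Of all 31-base words of its transcript, Bcl2a1a had 20.4% that occur in no other gene of the annotation on either strand, Bcl2a1b had 11.2% and Bcl2a1d had 10.9%. Bcl2a1b had levels of 98.3 and 33.95 TPM in replicates 1 and 2, from 1138 and 488 counts. Bcl2a1d was at 43.3 and 16.5 TPM, from 539 and 254 counts. Bcl2a1a, with the most words of its own, was at 1.58 and 0.70 TPM, from 18.4 and 10.2 counts. Bcl2a1b was thus the highest copy and Bcl2a1a the lowest in each library.

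The division among copies was alike in both libraries. Bcl2a1b took 67.1% and 64.8% of the summed counts of the 3 copies, Bcl2a1d took 31.8% and 33.8%, and Bcl2a1a took 1.08% and 1.35%. In the second table these shares were 59.7% and 61.3%, 38.4% and 36.7%, and 1.94% and 1.98%, so the order of the copies was the same. The authors' tables give a posterior standard deviation for each estimated count, which reflects reads that fit more than 1 place: 20.4 and 22.7 counts for Bcl2a1b, 7.47 and 7.80 for Bcl2a1d, and 3.52 and 2.65 for Bcl2a1a. These are small beside the gaps between copies, but they leave out differences between the 2 tables. In the second table Bcl2a1b had 1449 and 798 counts, Bcl2a1d had 932 and 478, and Bcl2a1a had 47.1 and 25.8. Each differs from the first table by more than these standard deviations. Summed, the 3 copies stood at 143 and 51.1 TPM, and at 63.3 and 44.7 TPM in the second table. A more distant copy, Bcl2a1c, had 1 count in each library and 0 in the second table.

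Neighbouring annotations limit these values. Gm29094, a protein-coding model on the same strand as Bcl2a1b, holds 47.3% of the 31-base words of Bcl2a1b and was given 88.2 and 143 counts, but 507 and 431 counts in the second table. Gm10634, an antisense gene, overlaps Bcl2a1d on the opposite strand and had 603 and 277 counts. The sources used here name no strand setting for the counting, so reads of Bcl2a1d and Gm10634 may not be fully separated.

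The low copy and the high copy also shared nearly all of the sequence around their RefSeq start sites. In the RefSeq promoter windows (GRCm38.p6, the mm10 assembly), Bcl2a1a and Bcl2a1b differed at 2 of 256 bases laid side by side, with annotated starts 44 bases apart. Bcl2a1a and Bcl2a1d differed at 6 of 294 bases beside a gap of 6 bases in Bcl2a1d. The GENCODE transcripts start 20 bases before the RefSeq start in Bcl2a1a and 64 bases before it in Bcl2a1b and Bcl2a1d, so part of each window lies inside the transcript.

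Bcl2l11 encodes BIM, the BH3-only protein that the survival proteins above bind. It lies on chromosome 2 (128126038 to 128162547, mm10, plus strand) and was the third most abundant of the set, with levels of 160 and 86.9 TPM in replicates 1 and 2, from 6612 and 4917 counts. Its rank among protein-coding genes was 258 and 350. The level of Mcl1 was 3.32 times that of Bcl2l11 in replicate 1 and 3.50 times in replicate 2 (3.02 and 3.002 in the second table), so this ratio of TPM differed little between libraries. Bcl2l1 stood at 0.298 and 0.235 of the Bcl2l11 level.

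Birc3 and Birc2 encode cIAP2 and cIAP1, ubiquitin ligases that modify RIPK1 and other proteins at TNF receptors. They are neighbours on chromosome 9, Birc2 at 7818227 to 7837064 and Birc3 at 7848699 to 7873186 (mm10, both minus strand). Birc3 had levels of 116 and 50.2 TPM in replicates 1 and 2, from 2816 and 1224 counts, and Birc2 at 20.3 and 13.6 TPM, from 935 and 804 counts. Birc3 was the higher of the pair in both libraries, by 5.72 times and 3.70 times in TPM and by 3.01 times and 1.52 times in counts. In the second table the ratios of TPM were 12.6 and 6.84, from 4701 and 2818 counts of Birc3 and 1159 and 1163 of Birc2. Short noncoding Birc3-205 and Birc3-206 held 43.4% and 28.0% of Birc3 TPM there in replicate 1, and 38.0% and 30.4% in replicate 2. Birc2 alone of the 10 had the higher TPM in replicate 2 there, at 9.42 and 14.04 TPM.

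Cflar encodes c-FLIP, a catalytically inactive relative of caspase 8 that blocks its activation. It lies on chromosome 1 (58711508 to 58758884, mm10, plus strand) and had levels of 199.8 and 107 TPM in replicates 1 and 2, from 8681 and 5946 counts. That was 6.98 and 3.84 times the level of Casp8, the gene of caspase 8, which was at 28.6 and 28.0 TPM. Both levels cover all transcripts of the gene, and coding transcripts held only 26.3% and 24.0% of the Cflar TPM. Traf1, whose protein is an adaptor that binds TRAF2 and the cIAPs, lies on chromosome 2 (34941750 to 34961772, mm10, minus strand). It was the least abundant of the set apart from Bcl2a1a, at 14.6 and 6.54 TPM from 519 and 287 counts.

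All 10 genes had lower scaled counts in replicate 2, and 9 of the 10 were lower beyond counting error, that is, with an exact 95% binomial interval clear of 0. Of the 15557 genes with enough counts, 25.6% were called lower and 24.5% higher by the same rule. All 10 genes passed the count minimum. The median log2 ratio of the 10, replicate 2 over replicate 1, was -0.78, against 0.0034 for all genes. The interval covers counting error only, and with 2 libraries of 1 group no test between conditions exists. In bulk RNA, fewer cells of a type and less RNA per cell cannot be told apart.

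The size of the difference varied among the genes. Bcl2a1b had a log2 ratio of -1.16 (interval -1.32 to -1.01), Birc3 had -1.14 (-1.24 to -1.05) and Bcl2a1d had -1.02 (-1.25 to -0.81). These 3 were over 2-fold lower with intervals clear of 0, as were 3.67% of all genes tested. Over 2-fold higher were 0 of the 10, against 4.36% of all genes. In the second table Birc3 was short of 2-fold at -0.995 (-1.06 to -0.93), while Bcl2a1b was at -1.12 (-1.24 to -0.99) and Bcl2a1d at -1.22 (-1.38 to -1.06). The intervals of Birc3 and Bcl2a1b there both include a 2-fold difference, and only that of Bcl2a1d lies wholly past it. The 3 Bcl2a1 copies summed, which avoids the division of reads among these copies, had -1.11 (-1.24 to -0.99). Reads shared with Gm29094 remain divided, and its 88.2 and 143 counts, higher in replicate 2, are not in the sum. Bcl2l1 and Traf1 followed at -0.80 (-0.92 to -0.68) and -0.79 (-1.01 to -0.58). Cflar, Mcl1 and Bcl2l11 were lower by less, at -0.49 (-0.53 to -0.44), -0.45 (-0.48 to -0.43) and -0.37 (-0.42 to -0.31). Birc2 had the smallest difference, -0.16 (-0.30 to -0.02), and 35.6% of tested genes had a lower ratio. Bcl2a1a, with few counts, had -0.76 and an interval from -2.07 to 0.40.

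**Figure D2:**
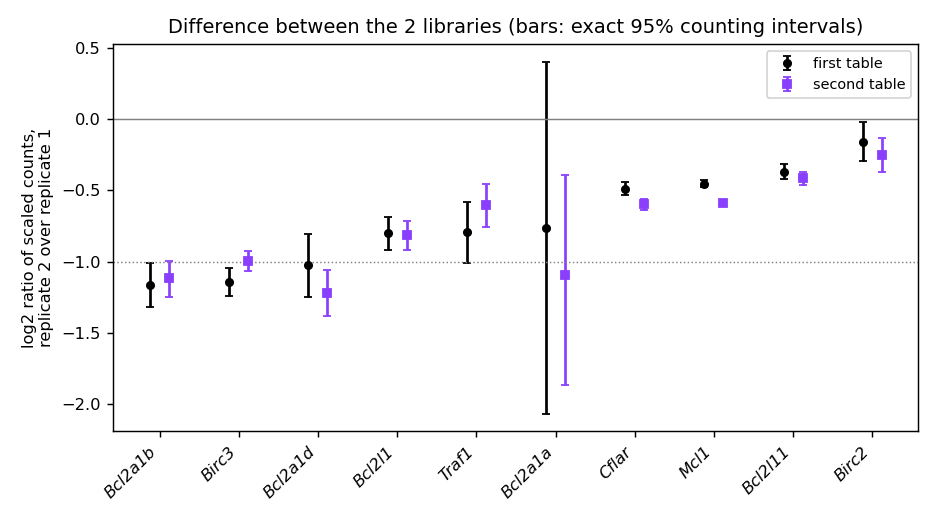
Log2 ratio of scaled counts, replicate 2 over replicate 1, for each gene in the first table (black circles) and the second (violet squares). Bars are exact 95% counting intervals, the solid line is no difference and the dotted line a 2-fold lower value. Bcl2a1b, Birc3 and Bcl2a1d lie furthest down at -1.16 to -1.02 in the first table, and Birc2 lies nearest to 0.

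In the second table all 10 intervals lay below 0, where 34.1% of genes were called lower and 23.4% higher. The median ratio of the 10 there was -0.71, and that of all genes was -0.05. Over protein-coding genes the ratio of the 2 libraries varied with GC content of the transcripts. GC content of the 10 ranged from 43.2% to 53.1%, beside a median of 49.6% for tested protein-coding genes. With that trend taken out, the median of the 10 was -0.71 and all 10 were below 0. Of the 8 neutrophil markers 2 had enough counts, and both, Ngp and Ltf, were higher in replicate 2, with log2 ratios of 1.90 and 0.98. Counts were too few to compare for S100a9 (9 and 6), S100a8 (3 and 2) and Camp (1 and 0). The same holds for Mpo (1 and 10) and Elane (0 and 1), which went the other way. The part of other cells in the Bcl2a1 values was not tested. Macrophage markers had a median log2 ratio of 0.07, with 2 of 8 lower and 4 higher beyond counting error.

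Proportions between related genes differed between the 2 libraries in some pairs and little in others. The log2 ratio of Birc3 was 0.98 below that of Birc2, written as a difference of -0.98, and the Cflar ratio differed from that of Casp8 by -0.71. For Mcl1 and Bcl2l11 the difference was -0.08. Such differences between 2 genes are free of library scaling, and they describe 2 libraries only.

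Nuclear RNA includes transcripts that are not fully spliced, so the transcript tables were read for each gene. Of the 10 genes, 7 have more than 1 annotated transcript, and in 6 of these 7 the transcript with the highest TPM was the same in both libraries, Birc3 being the exception. In the second table this held for 3 of the 7, and by counts in the first table for 7 of 7. Across the 6 genes with more than 1 class of transcript, coding transcripts held a median of 53.5% of the gene's TPM in replicate 1, and the median in replicate 2 was 49.9%. Because TPM corrects for length, short transcripts weigh more in these shares than in shares of counts. Coding is the annotated class, and some coding transcripts end inside the gene. A coding share is therefore not a share of fully spliced RNA, which was not measured. Intervals of single transcripts below cover counting error only, not the division of reads among transcripts of a gene.

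**Figure D3:**
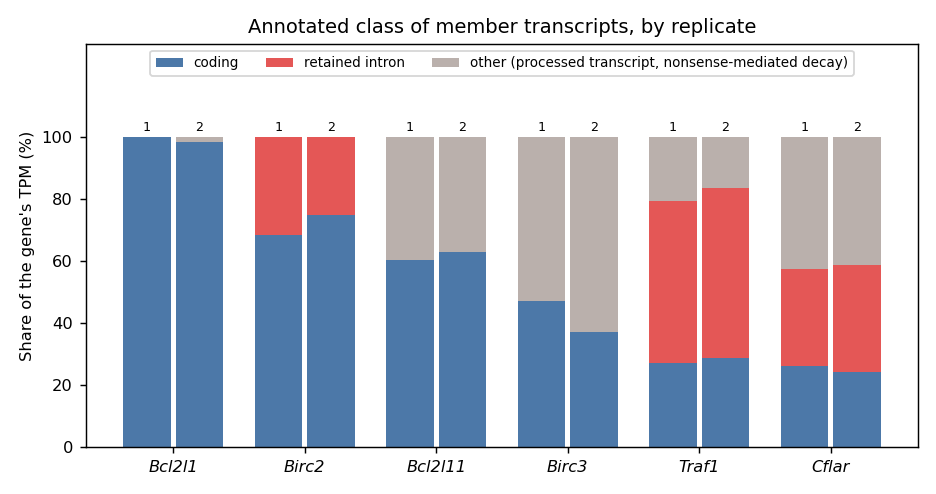
Distribution of TPM within each gene over transcripts of the classes coding (blue), retained intron (red) or other (grey), in replicates 1 and 2 of the first table. Bcl2l1 is almost wholly coding, whereas coding transcripts hold 26.3% and 24.0% in Cflar.

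Mcl1 had a single transcript with counts in the first table, Mcl1-201, which encodes 331 codons. The second table also gave 2313 counts in replicate 1 to Mcl1-202, a shorter coding transcript with 285 codons, and 0 in replicate 2. Bcl2l1 was 100% and 98.5% coding by TPM, but its coding forms differed between libraries. Transcripts with the 233-codon reading frame of BCL-xL (Bcl2l1-201 and Bcl2l1-202) were at 13.5 and 10.15 TPM, whereas those with a 209-codon frame (Bcl2l1-205 and Bcl2l1-206) were at 26.7 and 7.76 TPM. The 233-codon frame thus held 28.4% of coding TPM in replicate 1 and 50.4% in replicate 2, and 22.4% and 40.9% in the second table. Bcl2l1-205 ends inside the gene, at 152828127 on the minus strand, whereas Bcl2l1-201 runs on to 152780668. How much of the Bcl2l1-205 level came from unspliced RNA was not tested.

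By counts in the first table, Bcl2l11 was divided mainly among 3 long transcripts. Bcl2l11-207, noncoding and 391 bases long, held 7.84% and 6.36% of the gene's TPM there, and 26.3% and 18.2% in the second table. Bcl2l11-205, whose 196 codons are those of BIM-EL, had 2612 counts in replicate 1 and 2482 in replicate 2, with a log2 ratio of -0.01 (interval -0.09 to 0.07). Bcl2l11-202, with 91 codons, had 2551 and 1533 counts, a log2 ratio of -0.67 (-0.77 to -0.58). Though coding by class, Bcl2l11-202 ends inside the gene at 128131495, whereas Bcl2l11-205 runs on to 128162547. Bcl2l11-208, a noncoding processed transcript with 38.6% of its bases outside coding exons, had 1275 and 832 counts, or -0.56 (-0.68 to -0.43). The lower Bcl2l11 total in replicate 2 lay in transcripts other than Bcl2l11-205, which the second table gave 3044 and 3537 counts. Those 2 counts are unscaled and give no direction: Birc2, with 1159 and 1163 counts there, had a scaled log2 ratio of -0.25. Frames of 140 and 110 codons, the lengths of BIM-L and BIM-S, were at 0.94 and 0.15 TPM and at 2.58 and 0.88 TPM. Values in the second table were 0.62 and 1.28 TPM and 9.23 and 2.17 TPM, so the direction for the 140-codon frame differed between tables.

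In Cflar the transcript with the most counts and the highest TPM was noncoding. This transcript, Cflar-213, annotated as a retained intron, is 1 exon of 3677 bases on chromosome 1 (58713886 to 58717562, mm10) that starts 2378 bases after the first base of the gene. All of it lies outside the exons of coding Cflar transcripts, within intron 1 of 9 of Cflar-205, the coding transcript with the most counts. It had 4122 counts in replicate 1 and 2999 in replicate 2, which is 47.5% and 50.4% of the gene's counts and 31.3% and 34.7% of its TPM. The second table gave it 5081 and 4402 counts. Processed transcripts of Cflar held a further 42.5% and 41.3% of TPM, led by Cflar-208 at 33.8 and 22.4 TPM and Cflar-207 at 29.4 and 14.9 TPM. The log2 ratio of Cflar-213, -0.40 (interval -0.47 to -0.33) was close to that of Cflar-205, at -0.44 (-0.53 to -0.36).

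**Figure D4:**
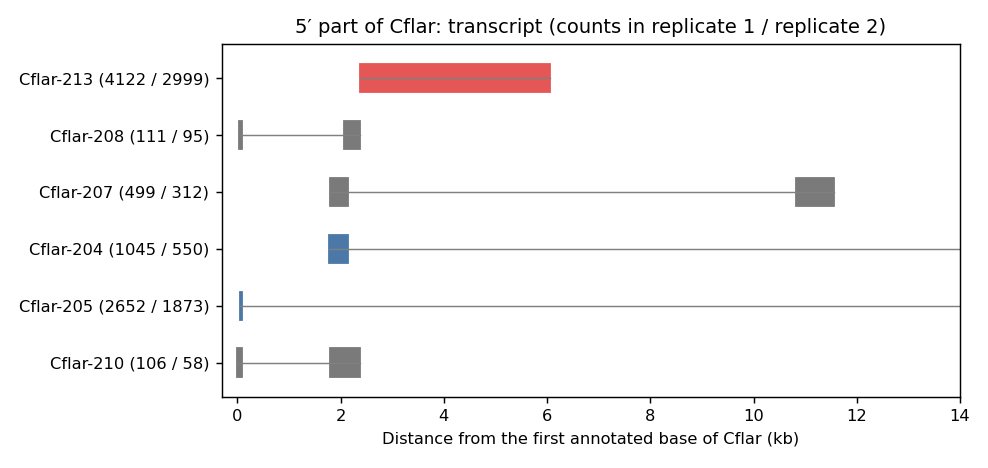
Exons (boxes) of the 6 Cflar transcripts with the highest summed TPM, over the first 14 kb of the gene, with counts in replicates 1 and 2 after each name; blue is coding, red retained intron and grey processed transcript. Cflar-213 lies within the first intron of Cflar-205 and holds 4122 and 2999 counts.

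The coding transcripts of Cflar fall into a long and a short form. Cflar-205, with the 481 codons of the long form, had 2652 and 1873 counts at 21.9 and 12.7 TPM. Cflar-204, which starts at another first exon and encodes 215 codons, had 1045 and 550 counts at 30.5 and 13.1 TPM, with a log2 ratio of -0.87 (interval -1.02 to -0.72). The counting intervals of the short form and of Cflar-205 did not overlap, but they leave out the division of reads among transcripts. The second table gave 1348 and 797 counts to Cflar-204 and 3422 and 2919 to Cflar-205. The short form held 58.2% of coding TPM in replicate 1 and 50.8% in replicate 2, but 51.3% and 44.6% in the second table, where the 481-codon form held 36.8% and 46.7%.

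In the first table coding transcripts held 26.9% and 28.8% of Traf1 TPM, against 54.0% and 43.5% in the second. Traf1-206 and Traf1-208, both annotated as retained introns with 84.9% and 84.7% of their bases outside coding exons, together took 64.3% of its counts in replicate 1 and 69.7% in replicate 2 of the first table. The share of counts in the second table was 49.0% and 46.6%, and the transcript with most counts was the coding Traf1-207. Birc2 had 1 such transcript with counts, Birc2-203, with 14.5% and 11.1% of its counts. By TPM the retained-intron share averaged 53.5% ± 1.63 in Traf1, 33.0% ± 2.38 in Cflar and 28.5% ± 4.58 in Birc2 (SD, n = 2). The same share had a median of 32.0% in replicate 1 and 32.95% in replicate 2 over the 6517 genes that have a retained-intron transcript and average at least 1 TPM. In shares of counts the medians over these genes were 19.3% and 20.0%. The Traf1 share of TPM in the second table was 34.6% and 42.5%, near the medians of 35.5% and 37.4% there.

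Birc3 had no retained-intron transcript, and its TPM lay largely on 2 short processed transcripts. Birc3-205, of 355 bases, and Birc3-206, of 360 bases, had 93 and 41 counts and 82 and 66 counts, yet made up 32.6 and 11.0 TPM and 27.9 and 17.3 TPM. The coding transcripts held 93.5% of counts in replicate 1 and 88.9% in replicate 2, but 46.9% and 36.9% of TPM. Full-length cIAP2, a frame of 602 codons in Birc3-201, was at 24.6 and 8.45 TPM, and Birc3-202, with 376 codons, at 28.6 and 9.52 TPM. On the minus strand Birc3-202 ends inside the gene at 7855815, whereas Birc3-201 runs on to 7848699. Both coding transcripts had log2 ratios of over 2-fold lower counts in replicate 2 of the first table, at -1.19 and -1.24. For the whole gene the second table gave -0.995, short of 2-fold.

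Other genes of the same pathways were read from 9 lists of 59 genes in all, of which 51 reached 1 TPM in both libraries. These lists too were chosen with earlier results of these data known. Of the 53 with enough counts, 25 were lower and 10 higher in replicate 2 beyond counting error, set against 25.6% and 24.5% of all genes. Among other survival genes of the BCL2 family, Bcl2l2 was at 23.5 and 15.2 TPM, Bcl2 at 3.62 and 2.65 TPM, Bcl2a1c at 0.22 and 0.17 TPM, and Bcl2l10 had 0 counts in both. Among the pore-forming effectors, Bax was at 57.5 and 32.0 TPM and lower in replicate 2 (log2 ratio -0.52), Bak1 was at 4.21 and 5.89 TPM and higher (0.74), and Bok had 2 and 0 counts. Of 7 other BH3-only genes, 5 reached 1 TPM, from Pmaip1, the gene of NOXA, at 37.0 and 29.1 TPM down to Bik at 0 counts in both. Beyond counting error 3 of the 5 were lower in replicate 2 and 0 were higher.

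The remaining lists cover inhibitors and receptor complexes. Of 8 other IAP genes, Birc6 was highest at 90.5 and 64.7 TPM and Birc7 had 0 counts, and 4 of 7 with enough counts were lower in replicate 2 and 1 was higher. Both IAP antagonists were lower, Htra2 at 45.4 and 20.3 TPM (log2 ratio -0.83) and Diablo at 16.2 and 9.63 TPM (-0.27). All 17 genes of TNF receptor complexes reached 1 TPM, led by Tnfrsf1b, the gene of TNF receptor 2, at 81.9 and 55.5 TPM, with Fadd lowest at 1.67 and 1.71 TPM. In that list 8 of 17 were lower and 4 of 17 higher in replicate 2.

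Of 6 apoptosome and caspase genes, Apaf1, the scaffold of the apoptosome, was highest at 55 and 27.4 TPM and Casp6 lowest at 2.18 and 2.68 TPM. Of the 6, 1 was lower in replicate 2 and 2 were higher. The list named for MCL1 and BIM turnover holds 7 genes and also takes in other kinds of regulators, such as the transcription factor gene Foxo1. It was led by Huwe1 at 100.9 and 83.6 TPM, with Foxo1 lowest at 1.72 and 1.68 TPM. Of the 7, 0 were lower beyond counting error and 2 were higher, counts that do not describe turnover alone. In the list of other NF-kB survival targets 5 of 5 were lower, with a median log2 ratio of -0.87. Its highest gene, Fth1, the ferritin heavy chain, was at 1295 and 901 TPM with -0.14, and its lowest, Ier3, at 129.5 and 89.0 TPM with -0.18.

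**Figure D5:**
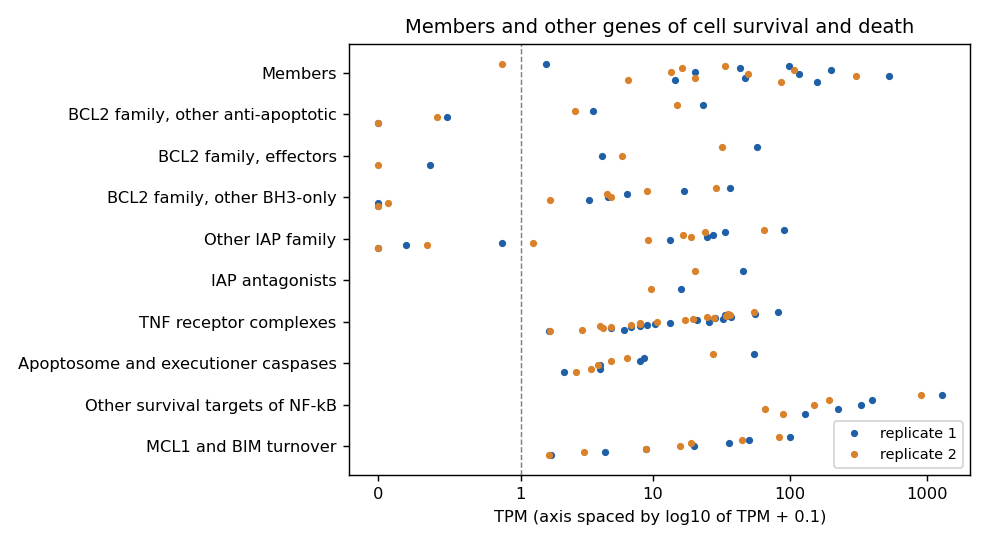
TPM of the 10 genes and of 9 lists of related genes, 1 point per gene and library (blue, replicate 1; orange, replicate 2), on an axis spaced by the log10 of TPM + 0.1, with a dashed line at 1 TPM. The 10 genes span 0.70 to 530 TPM, and the 5 other NF-kB survival targets all lie at 66.2 TPM or more.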

How the data were processed

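Nucleoplasmic RNA from 2 libraries of 1 group was analysed. The first quantification, with column names that RSEM writes per the file headers, holds the authors' estimated counts, TPM and FPKM per gene and transcript. The second, with kallisto's column names per the file headers, holds deposited estimated counts and TPM per transcript, summed here per gene. The deposited notes name mm10 and GENCODE M21. The sources used here name no aligner, tool version or strand setting.

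Symbols came from the second table. Entries that name no mouse gene took 0.823% and 0.207% of counts and were left out. Estimated counts were rounded and scaled by TMM (edgeR 4.0.16, R 4.3.3). Log2 ratios used a prior count of 0.5 and exact binomial 95% intervals. The intervals cover counting error only, since reads lacking molecular identifiers can be copies of 1 molecule. A count of 0 allows up to 3 counts, or 0.165 and 0.161 CPM. Simulated counts with known changes served to check the ratios. Scripts ran in Python 3.11.15 with statsmodels 0.14.6 for the GC trend, scipy 1.17.1 for intervals, pandas 2.3.3 and numpy 2.4.6.

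The genes and lists were chosen with earlier results of these data known. All 10 genes are named, with the highest and lowest gene of each list by mean TPM, and every gene of lists of 4 or fewer. Ngp, Ltf, S100a8, S100a9, Camp, Mpo, Elane, Cd3d and Casp8 were named after their values were seen. Alternatives were scaling by DESeq2 1.42.0 or by totals, ratios of TPM, other thresholds and units, the second quantification, summed copies and single libraries. Removal of the GC trend (lowess, span 0.3) and TPM ratios of the second table were added after seeing the data. Sequences came from GENCODE M21 and RefSeq (GRCm38.p6), which matched all 10 genes.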

Additional observations from a re-analysis of the deposited data

Results flagged for a closer look

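Reads of phiX174, a sequencing control that entered no comparison, came to 150987 counts in the library of replicate 1 and to 38616 counts in that of replicate 2. Both exceed the limit of 3 counts set by a count of 0.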

How the results depend on the processing

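Beyond counting error, 7 to 10 genes were lower in replicate 2 under the alternatives run. The ratio of TPM in the second table, added after seeing the data, gave a median log2 ratio of -0.25 with 7 genes lower, put Birc2 higher at 0.57 and left Cflar at -0.01. Under the other alternatives no ratio changed sign. The median log2 ratio was -0.64 with the Bcl2a1 copies summed, which leaves 8 items, and -1.17 with ratios of TPM, which include the shift shared by most genes. Bcl2a1a alone passed the counting interval under some settings: -1.10 in the second table and -1.17 with TPM ratios. The median level averaged 50.1 TPM over both libraries, 26.9 in the second table, 190 with TPM rescaled over nuclear protein-coding genes and 90.2 with the copies summed, and single libraries gave 27.2 to 72.9. The median coding share was 48.6% in the second table and 83.9% as a share of counts, with 49.9% to 53.5% in single libraries. The leading transcript was shared by both libraries in 3 genes in the second table, and the cause was not tested. It needs both libraries, so no value exists without a replicate. No paired analysis was possible because there is only 1 group. Depth limits Bcl2a1a, with 18.4 and 10.2 counts.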

Other observations

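The consensus motif of NF-kB, the kB site, was searched on both strands of RefSeq promoter windows of 300 bases, from 250 before to 50 after each annotated start. Of 14 windows for the 10 genes, 1 held a match, in a window of Bcl2l1 on chromosome 2 (152830950 to 152830959, mm10), 242 bases before that start and within the GENCODE span of Bcl2l1-203. A match was present in 8.46% of 32851 windows and in 9.55% of 27025 genes, so 1 of 10 genes is close to the share over all genes. A window without a match says only that these letters are absent from it.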
